A study of Mus musculus with 106 samples.

Results

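PPAR binding in mouse liver after vehicle was compared between WT animals and animals whose liver lacks Foxa2, by setting the peak list of the Foxa2-KO vehicle group against that of the WT vehicle group. The WT list held 1985 peaks and the Foxa2-KO list 4094. Merged, they gave 5774 sites, of which 267 were in both lists, 1700 in the WT list only and 3807 in the Foxa2-KO list only, out of 367663 merged regions over the 27 peak lists of the series. All animals of the compared groups were C57BL/6 and 3 months old. The FXR and Foxa2 lists, also used below, came from animals labelled with an age range in weeks, not as 3 months old. The labels of those animals also give a set time before harvest, which the PPAR and LXR labels do not. The part of age and timing in comparisons with these lists was not tested. The mutant carried Foxa2loxP/loxP;Alfp.Cre, a Cre transgene driven by albumin regulatory sequences with albumin and alpha-fetoprotein enhancers, so that the deletion takes place in hepatocytes and cholangiocytes and other liver cells keep the gene. The control group was labelled WT with no further allele, and the PPAR labels give vehicle with no composition or route. The series as a whole also holds ATAC-seq, Foxa2, FXR and LXR ChIP-seq and RNA-seq of livers after vehicle or a ligand, namely GW4064 (an agonist of FXR) or GW3965 or T09 (agonists of LXR). Chromatin came from 100 mg of snap-frozen liver, and the antibody was a rabbit polyclonal against PPARα.

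PPARα is a nuclear receptor for fatty acids that, paired with RXR, binds a direct repeat of the half-site AGGTCA with 1 base between the copies. In liver it is known for switching on fatty acid uptake, mitochondrial and peroxisomal β-oxidation, ω-hydroxylation and ketone body formation, above all in fasting. Foxa2 is a forkhead factor that binds sequences such as TGTTTAC in closed chromatin and is held to open sites for other factors, nuclear receptors among them.

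Each group had 2 libraries but a single peak list, so no spread between animals can be given and nothing below was tested across replicates. Counts and shares of the vehicle lists describe these 4 libraries as listed. Of the other ChIP lists, each PPAR and FXR list rests on 2 libraries and each Foxa2 list on 1. Each LXR list rests on 1 library in WT and 3 in Foxa2-KO. Counts of lists per genotype below therefore do not rest on equal numbers of libraries. Read depth is not given in the lists, and a site in only 1 list may have been just short of the limit in the other. The lists hold no measure of the Foxa2 deletion itself. Neither vehicle list had a PPAR peak in or within 10 kb of Foxa2 (0 and 0) or of Ppara, the gene of the receptor (0 and 0), and Foxa2 transcripts were not analysed here.

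Few peaks in either list touched a gene start. Of 32851 start windows in the RefSeq table (GRCm38.p6, the same coordinates as mm10, 250 bases before to 50 after a start), 12 were met by a shared peak (11 in each list, 10 of them in both), 10 by a WT-only peak and 19 by a KO-only peak. As shares of peaks, 2.81% (WT list) and 2.44% (Foxa2-KO list) of shared peaks met a window, against 0.588% of WT-only and 0.525% of KO-only peaks. Shared peaks were also wider, and the part of width was not tested. The 250 bases before the start are printed for 3 genes with a shared peak (Stap2, Neurod4 and Trpm8), 2 with a WT-only peak (Myl4 and Naa60) and 2 with a KO-only peak (Zfp936 and Glra3), to show what sequence the peaks covered. Capitals mark the bases inside the peak, taken from the WT list for shared peaks.
Stap2 (chr17:56005607-56005856, - strand): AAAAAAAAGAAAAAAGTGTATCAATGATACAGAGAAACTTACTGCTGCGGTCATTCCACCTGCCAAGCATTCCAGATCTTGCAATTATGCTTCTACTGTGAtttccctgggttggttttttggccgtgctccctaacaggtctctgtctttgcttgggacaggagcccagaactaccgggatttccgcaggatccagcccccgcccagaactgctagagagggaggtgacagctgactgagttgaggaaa
Neurod4 (chr10:130280255-130280504, - strand): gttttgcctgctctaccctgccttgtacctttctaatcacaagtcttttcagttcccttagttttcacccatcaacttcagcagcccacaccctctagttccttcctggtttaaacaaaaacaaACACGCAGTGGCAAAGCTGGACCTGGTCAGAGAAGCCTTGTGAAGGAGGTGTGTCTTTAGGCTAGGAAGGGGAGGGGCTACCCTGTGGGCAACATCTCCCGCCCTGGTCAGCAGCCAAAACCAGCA
Trpm8 (chr1:88306485-88306734, + strand): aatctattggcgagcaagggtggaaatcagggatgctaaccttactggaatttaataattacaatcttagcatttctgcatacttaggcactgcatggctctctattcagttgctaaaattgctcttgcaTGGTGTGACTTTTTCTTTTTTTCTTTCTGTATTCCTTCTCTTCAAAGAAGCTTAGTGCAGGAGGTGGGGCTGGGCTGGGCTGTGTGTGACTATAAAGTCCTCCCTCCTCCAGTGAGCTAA
Myl4 (chr11:104550413-104550662, + strand): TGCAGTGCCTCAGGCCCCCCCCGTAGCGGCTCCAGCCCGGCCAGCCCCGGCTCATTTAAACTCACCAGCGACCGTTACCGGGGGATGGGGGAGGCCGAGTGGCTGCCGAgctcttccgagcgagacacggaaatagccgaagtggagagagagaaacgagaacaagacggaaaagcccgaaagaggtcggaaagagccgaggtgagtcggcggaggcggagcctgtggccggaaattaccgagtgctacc
Naa60 (chr16:3884369-3884618, + strand): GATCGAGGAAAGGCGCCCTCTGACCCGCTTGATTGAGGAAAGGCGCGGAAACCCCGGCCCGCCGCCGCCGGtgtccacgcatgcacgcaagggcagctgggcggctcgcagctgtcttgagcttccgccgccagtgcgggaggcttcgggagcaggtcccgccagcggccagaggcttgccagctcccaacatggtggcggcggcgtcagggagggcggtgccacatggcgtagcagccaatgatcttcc
Zfp936 (chr7:43177340-43177589, + strand): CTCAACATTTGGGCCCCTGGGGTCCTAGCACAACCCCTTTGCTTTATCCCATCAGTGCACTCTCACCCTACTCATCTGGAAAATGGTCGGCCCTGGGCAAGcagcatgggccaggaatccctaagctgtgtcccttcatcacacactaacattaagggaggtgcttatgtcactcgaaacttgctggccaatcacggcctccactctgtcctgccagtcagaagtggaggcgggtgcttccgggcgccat
Glra3 (chr8:55940168-55940417, + strand): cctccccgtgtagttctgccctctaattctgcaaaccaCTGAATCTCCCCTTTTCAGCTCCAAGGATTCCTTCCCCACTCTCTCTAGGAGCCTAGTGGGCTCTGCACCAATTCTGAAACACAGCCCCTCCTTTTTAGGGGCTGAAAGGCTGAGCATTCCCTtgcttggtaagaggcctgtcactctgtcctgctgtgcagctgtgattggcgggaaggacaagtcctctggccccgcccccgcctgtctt

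The half-site AGGTCA, on either strand, was in 16.3% of all start windows. It was in 3 of the 10 windows with a WT-only peak, 2 of the 19 with a KO-only peak and 0 of those with a shared peak. Only at Cdkn2a, with a WT-only peak, did it lie inside the peak. At Ppy and Gm29986 (WT-only) and at Phf24 and Gm34370 (KO-only) it lay outside. The full element DR1, searched as 2 copies of AGGTCA in a row with any 1 base between them, was in 13 windows of the whole table (0.0396%) and in none of those met by a peak of any class, and a full element also holds the half-site. TGTTTAC was in 3.65% of all windows and in none of those met by a peak. These counts concern only the letters of the windows, and the sequence of peaks elsewhere was not analysed here.

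The shared peaks at these starts differed in how often they were found again. The Stap2 peak (a signalling adaptor), chr17:56005756-56006016, was entry 140 of the WT list and entry 1567 of the Foxa2-KO list, lists being in order of q, the authors' false discovery rate of a peak. It recurred in 2 Foxa2-KO and 0 WT PPAR lists with ligand. At Neurod4, which encodes a neuronal bHLH factor, the peak was entry 550 in WT and 828 in Foxa2-KO and recurred in 0 lists with ligand. The Trpm8 peak, at the gene of a cold-sensing ion channel, was 1855 bp wide and entry 95 in WT, and 6579 bp wide and entry 19 in Foxa2-KO. The WT peak met 2 WT and 3 Foxa2-KO lists with ligand and the wider Foxa2-KO peak 3 and 3. The peaks at Myl4 (an atrial myosin light chain), Naa60 (an N-terminal acetyltransferase), Zfp936 (a zinc finger protein) and Glra3 (a glycine receptor subunit) were in 0 of the 6 lists with ligand. Their q were 0.0493, 0.0525, 0.0124 and 0.0536, where the largest q in these lists was about 0.07.

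Overlap between the genotypes was nearly complete at the head of the lists and rare below. Of the WT peaks, 285 (14.4%) overlapped a Foxa2-KO peak by at least 1 base, and of the Foxa2-KO peaks 287 (7.01%) overlapped a WT peak. All 50 of the first 50 entries did so in each list, and 42 of the first 50 in WT overlapped one of the first 50 in Foxa2-KO. In WT, q reads 0 for 55 peaks, so the order among these is that of the list and not set by the printed q. Over the first 200 entries the share was 73.5% in WT and 75.5% in Foxa2-KO, and over the first 500 it was 36.4% and 37%. Of WT entries 1501 to 1985, 4.33% were shared, and of Foxa2-KO entries 3001 to 4094, 2.19%. With the Foxa2-KO list cut to the 1985 entries of the WT list the shares were 12.2% and 12.1%. In lists of equal length the 2 shares are bound to be close, since both count nearly the same overlaps. The overlapping peaks formed 305 pairs with a median overlap of 306 bp and a median distance of 63 bp between centres, and 5 pairs overlapped by 10 bases or less. Spearman's rho of the entry numbers over these pairs was 0.709, as a description, since all pairs come from the same 2 lists.

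**Figure D1:**
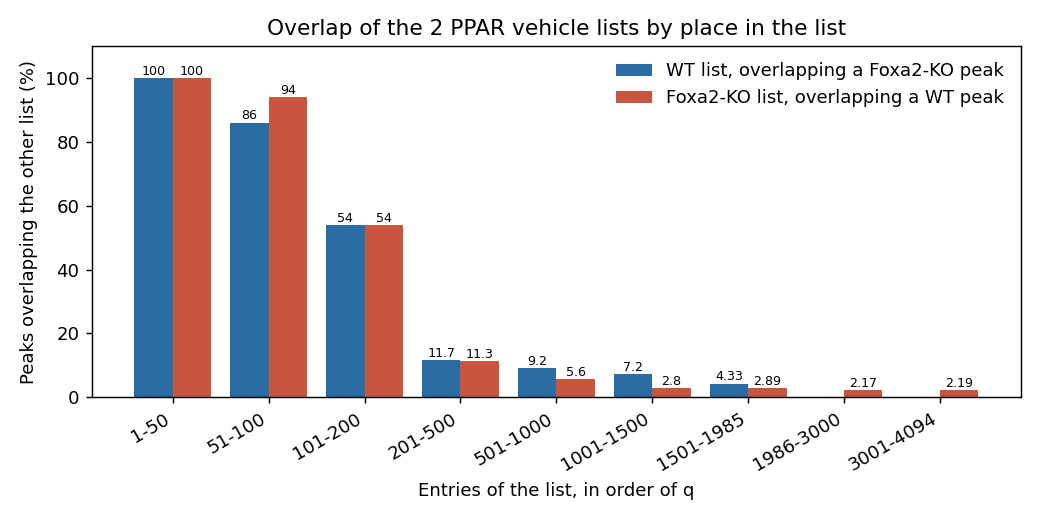
Percent of PPAR peaks that overlap a peak of the other genotype (y axis) by place in the list in order of q (x axis), for the WT and Foxa2-KO vehicle lists, with the percent above each bar. All of the first 50 entries of both lists overlap, 54% of entries 101 to 200 in each, and 4.33% of the last WT bin. The WT list ends at entry 1985, so the last 2 bins hold Foxa2-KO bars only.

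Shared peaks were wide and genotype-only peaks narrow. The median width of shared peaks was 391 bp in the WT list and 405 bp in the Foxa2-KO list, against 37 bp for WT-only and 39 bp for KO-only peaks. Peaks of 20 bp or less, shorter than a sequenced fragment, made up 35% of WT-only and 34.0% of KO-only peaks but 1.40% and 0.697% of shared ones. The median q was 0.0143 (WT list) and 0.00976 (Foxa2-KO list) for shared peaks, 0.0532 for WT-only and 0.0423 for KO-only. A q of at most 0.01 was reached by 27 of 1700 WT-only and 40 of 3807 KO-only peaks, and by 126 of 285 and 144 of 287 shared ones. The genotype-only classes were alike in width, and the share of their peaks inside a protein-coding gene was 34.1% for WT-only and 32.5% for KO-only, near the 31.9% and 32.4% of shared peaks. Genotype-only sites lay farther from gene starts than shared sites, with a median of 42.9 kb (WT-only) and 41.9 kb (KO-only) against 21.3 and 21.0 kb.

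**Figure D2:**
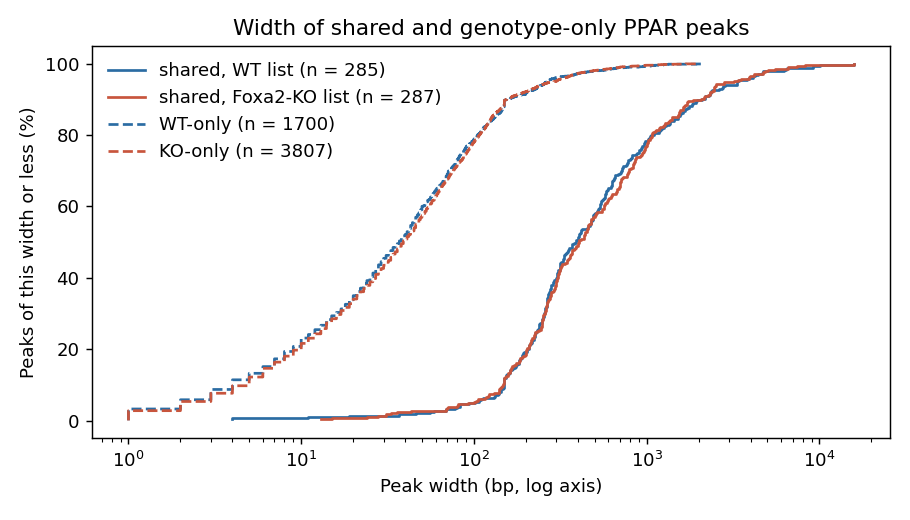
Cumulative percent of peaks (y axis) by peak width in bp on a log axis (x axis) for shared peaks of each list (solid lines) and WT-only and KO-only peaks (dashed lines). The 2 genotype-only lines nearly coincide, with medians of 37 and 39 bp, and lie to the left of the shared lines, with medians of 391 and 405 bp.

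Many of the shared peaks at the head of the lists were places that other antibodies also brought down. Regions with a peak in at least 1 list of each of the 4 antibodies (PPAR, FXR, LXR and Foxa2) numbered 102 and covered 389.5 kb. They held 99 of the 285 shared WT peaks and 101 of the 287 shared Foxa2-KO peaks, 30 of the first 50 entries in each list, and only 24 of 1700 WT-only and 54 of 3807 KO-only peaks. The first 2 WT entries, chr17:39842895-39846830 and chr17:39847421-39848943, lay in or within 1492 bp of the 18S ribosomal RNA copy Rn18s-rs5, and the next, chr11:109011565-109012127, at Gm36876. Entry 6 in each list lay at Gm40034. Entry 5 in WT lay inside Cdk8, a kinase of the Mediator complex, and entry 5 in Foxa2-KO, 7466 bp wide, inside 1600014C10Rik. Ribosomal and other repeated sequences have many copies in the genome, and reads from the copies cannot be told apart in such a peak. Of shared peaks, 12.6% (WT) and 11.8% (Foxa2-KO) lay in the first 3.5 Mb of a chromosome, next to the centromere in the mouse, against 1.59% of WT-only and 1.71% of KO-only peaks. The part of repeats in these counts was not tested.

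Outside these regions, 186 peaks of each list were still shared. The first of them lay on chr17:36231152-36231698, 24248 bp from Rpp21, an RNase P subunit gene, as entry 4 in WT and entry 3 in Foxa2-KO. Others among the first 10 of both lists were nearest to P4ha2 (a collagen prolyl hydroxylase, 8710 bp away), Ifngr2 (an interferon gamma receptor chain, 12414 bp away), Cr2 (a complement receptor, 64846 bp away), Gm39469, Vmn1r2 and Mex3c, by their WT positions. Sites inside Il1rapl1, 8329 bp from Rimbp3 and 27823 bp from Gm40035 completed the 10 of the WT list. Sites 32419 bp from Sp3, 121769 bp from Vmn1r2 and 15302 bp from Gm40035, the last not the WT site, completed those of the Foxa2-KO list. Each of the sites named in this paragraph was found in all 6 PPAR lists with ligand. They were also found with other antibodies. The sites nearest to Rpp21, Mex3c, Ifngr2 and Sp3 and inside Il1rapl1 were in all 8 WT lists of PPAR with ligand, FXR and LXR. The site near Rimbp3 was in 3 of these 8, all of them PPAR lists, but in 5 Foxa2 lists, as was the site near Gm39469. None of these genes was among the 91 genes listed for the PPARα pathway.

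The genotype-only sites with the smallest q lay in part inside genes and in part far from any protein-coding gene. Among WT-only sites the first was chr14:104336871-104337119, entry 53, in the noncoding gene D130079A08Rik and 124680 bp from Pou4f1, and it recurred in 1 WT and 1 Foxa2-KO list with ligand. It was followed by a site on chromosome Y, 145356 bp from LOC665918 (entry 72, in all 6 lists with ligand), and by sites inside Ano2, a calcium-activated chloride channel gene (entry 73, 0 lists), and Plxdc2, a plexin-domain membrane protein gene (entry 84, 2 WT and 2 Foxa2-KO lists). The others of the first 10 lay nearest to Aldh8a1 (192116 bp away), Bcl11a (926623 bp), Mvb12b (46330 bp) and Npsr1 (168848 bp) or inside Ccdc82 and the Ugt1a cluster. Of these 6 sites, 0 recurred in a WT list with ligand, and those nearest to Bcl11a, Mvb12b and Ugt1a recurred in 1, 2 and 1 Foxa2-KO lists. The Ugt1a site, chr1:88210254-88210440, lay inside 8 Ugt1a genes, which share their last exons and encode enzymes that couple glucuronic acid to bilirubin and drugs.

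Among KO-only sites the first lay inside Tmem267 (chr13:119602835-119603042, entry 80), in 1 WT and 2 Foxa2-KO lists with ligand. The next, entry 91, lay in the pseudogene Mup-ps11, 20453 bp from Mup14, one of the major urinary protein genes made in quantity by male liver, and recurred in 0 lists. Sites 13651 bp from Gm5662 (entry 95, 0 lists), inside Gm38702 (entry 103, 2 Foxa2-KO lists) and inside Tmcc1, the gene of an endoplasmic reticulum membrane protein (chr6:116022015-116022475, entry 121, 3 Foxa2-KO and 0 WT lists) came next. The others of the first 10 lay nearest to Gm21190 (11978 bp away), Pcdh9 (2092578 bp), Lce1m (24577 bp), Ccbe1 (58839 bp) and Gm15501 (914318 bp). Of these 5, 0 recurred in a WT list with ligand, and those nearest to Gm21190, Lce1m and Gm15501 recurred in 1, 1 and 2 Foxa2-KO lists.

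Shared sites recurred with ligand, and genotype-only sites rarely did, also in their own genotype. Of 285 shared WT peaks, 166 (58.2%) were in at least 1 of the 3 WT PPAR lists with ligand and 247 (86.7%) in at least 1 of the 3 Foxa2-KO lists, and 59 were in all 6. Of 1700 WT-only sites, 32 (1.88%) were found again in a WT list and 106 (6.24%) in a Foxa2-KO list. Of 3807 KO-only sites, 36 (0.946%) were found again in a WT list and 210 (5.52%) in a Foxa2-KO list. WT-only sites were thus found more often in the lists of the other genotype than in those of their own. List length moved with this in part: the WT lists with GW3965, GW4064 and T09 held 110, 1979 and 373 peaks, and the Foxa2-KO lists 2508, 2667 and 1813. Against the pair of lists nearest in length, WT with GW4064 and Foxa2-KO with T09, WT-only sites were found in 1.29% and 2.76% of cases and KO-only sites in 0.841% and 2.10%. These 2 lists were alike in number of peaks only. They covered 242.7 and 373.9 kb, 13.9% and 55.3% of their peaks had q of at most 0.05, and their ligands differed. The part of each in the shares was not tested. Of WT-only sites, the chromosome Y site was in all 6 lists and 8 sites were in 4. The first 4 of these 8 by entry lay inside Plxdc2, Fam227b (chr2:126147783-126148040) and Trpm8 and 154745 bp from Ddhd1, the Trpm8 site in 1 WT and 3 Foxa2-KO lists and the others in 2 and 2. The Trpm8 site, chr1:88308973-88310245, lay in a region of all 4 antibodies. It began just past the end of the Foxa2-KO vehicle peak chr1:88302267-88308845, and 8 of 8 Foxa2-KO lists of PPAR with ligand, FXR and LXR held it. Of KO-only sites, 1 was in 5 lists, 17721 bp from D430019H16Rik (chr12:105435984-105436286, 2 WT and 3 Foxa2-KO), and 10 were in 1 WT and 3 Foxa2-KO lists. The first 4 of these 10 by entry lay 58603 bp from Asmt, 324200 bp from Olfr161, and inside Nkap, an NF-kappaB activating protein gene, and Gm42346. The Olfr161 and Gm42346 sites were in regions of all 4 antibodies, the Asmt and Nkap sites were not. In all, 1585 WT-only (93.2%) and 3590 KO-only sites (94.3%) were in none of the 6 lists.

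**Figure D3:**
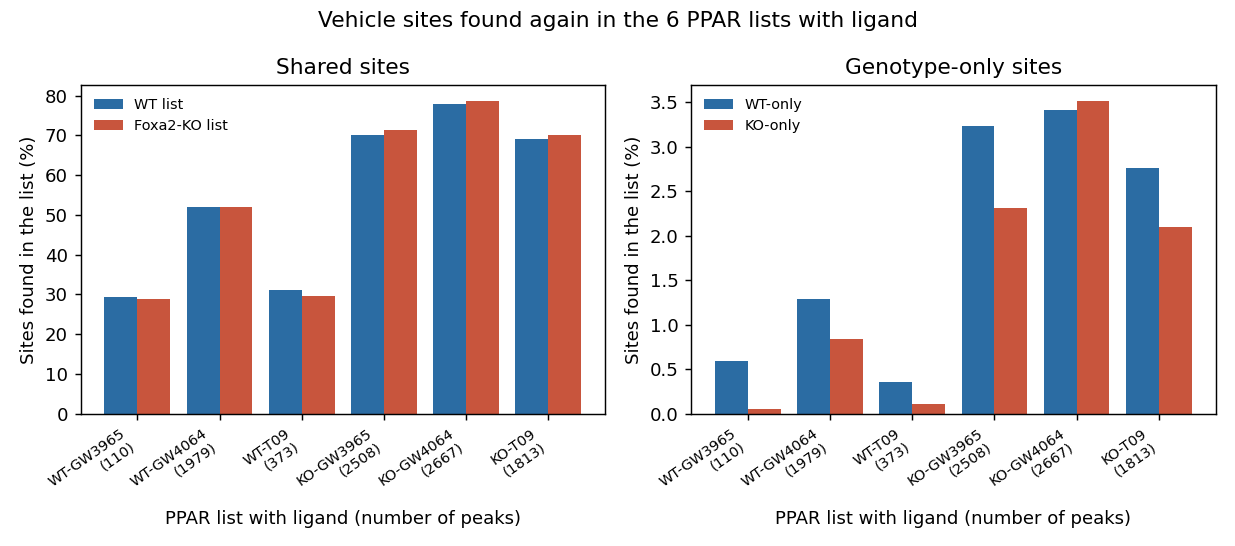
Percent of vehicle sites found again (y axis) in each PPAR list with ligand (x axis, number of peaks in brackets), for shared sites as listed in WT and Foxa2-KO (left) and for WT-only and KO-only sites (right, on another scale). Shared sites reach 77.9% and 78.7% in the Foxa2-KO list with GW4064, and no genotype-only bar is above 3.52%. Both genotype-only classes are found more often in each of the 3 Foxa2-KO lists than in any WT list. The Foxa2-KO list with T09 has fewer peaks (1813) than the WT list with GW4064 (1979) but covers more of the genome, 373.9 against 242.7 kb.

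Sites that followed genotype across the PPAR lists were few. No WT-only site was in 2 or 3 WT lists with ligand and in 0 Foxa2-KO lists, where 2 of the 3 WT lists were short. Of KO-only sites, 14 were in all 3 Foxa2-KO lists with ligand and in 0 WT lists, and 34 of the 287 shared Foxa2-KO peaks had that same pattern with ligand although WT had them in vehicle. The 14 sites, named here after their values were seen, included 2 inside Tmcc1, 1 inside Gm42346, 1 centred 60 bp from Tmem267 and 1 upstream of Alb. The Tmem267 peak, 2000 bp wide, reached into the gene. On chromosome 4 there were sites at 22130 bp from Zfp990, 23109 bp from Zfp982, 11399 bp from Zfp978 and 25253 and 52948 bp from Gm52720. The other 4 lay over 100 kb from any protein-coding gene, the nearest being Vmn1r238 (112333 bp), Tcte2 (125475 bp), Asmt (135120 bp) and Olfr161 (346935 bp). Over the 8 other PPAR, FXR and LXR lists of each genotype, 9 WT-only sites were in 3 or more of their own genotype and in 0 of the other. The reverse pattern held for 5, and the counts for KO-only sites were 14 and 3. These 14 are not the same set as the 14 above, which were picked on PPAR lists alone. Of those, the Tmcc1 site chr6:116022015-116022475 was in 5 of the 8 WT lists and the site centred 60 bp from Tmem267 in 3. The other Tmcc1 site and the site upstream of Alb were in 0. In none of these 16 lists were 1477 WT-only (86.9%) and 3365 KO-only sites (88.4%).

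The site upstream of Alb, the gene of serum albumin and one of the most active genes of the hepatocyte, was found in Foxa2-KO liver with 3 receptor antibodies. The Foxa2-KO vehicle list held 3 peaks between 11136 and 9628 bp before the Alb start: chr5:90449735-90450119 (q = 0.00123, entry 123), chr5:90450771-90450879 (entry 3215) and chr5:90451142-90451242 (entry 771). A peak in this window, chosen after its values were seen, was in 7 of 9 Foxa2-KO lists of PPAR, FXR and LXR and in 0 of 9 WT lists. The 7 were all 4 PPAR lists, both FXR lists (entries 10 and 25 with vehicle and entry 15 with GW4064) and the LXR list with the agonist labelled GW (entry 17). The LXR lists with T09 and with vehicle, the latter of 161 peaks, had none. The site was picked by its presence in the Foxa2-KO PPAR lists and its absence from the WT ones. The PPAR part of both counts was set by that choice, and only the FXR and LXR lists lay outside it. In WT liver the Foxa2 antibody had a peak in the window in 4 of its 5 lists, for example chr5:90449862-90450314 with vehicle. The Alfp.Cre transgene carries albumin sequences and is present in the mutant only, so reads from extra copies of these sequences and from the native locus cannot be told apart in these lists.

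**Figure D4:**
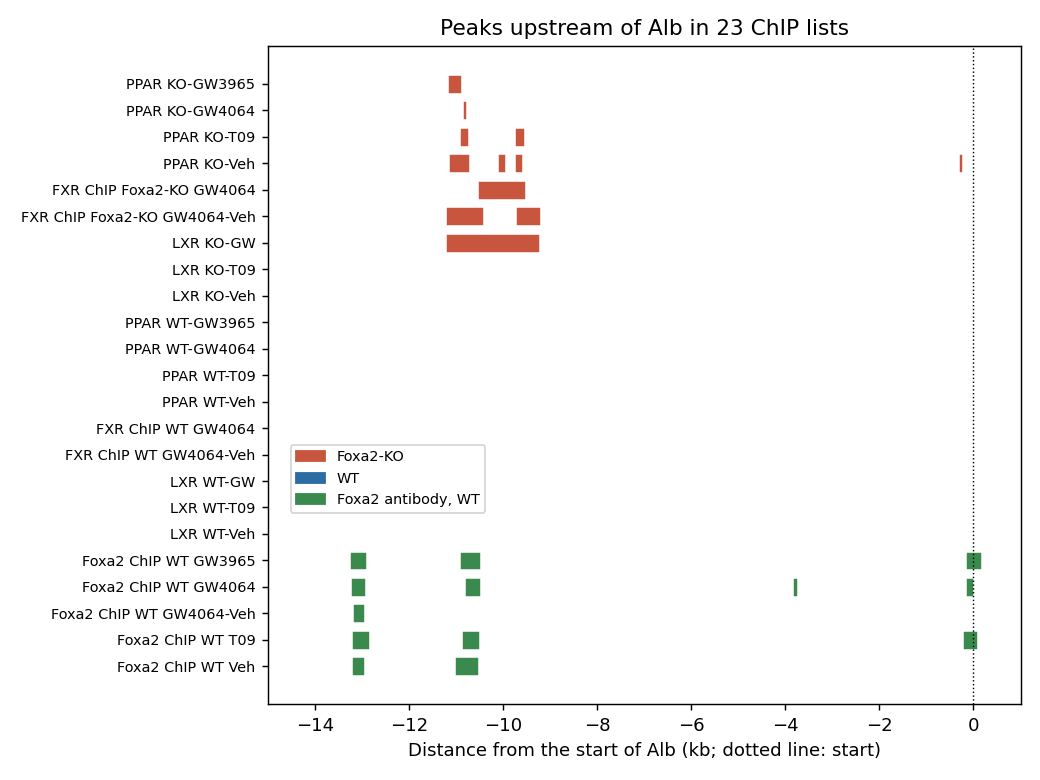
Peaks by distance in kb from the start of Alb (x axis, dotted line at the start) in the 23 ChIP lists (rows). The Foxa2-KO rows of PPAR, FXR and LXR hold peaks about 10 kb upstream in 7 of 9 lists, the 9 WT rows of these antibodies hold none, and 4 of 5 Foxa2 rows (WT liver) hold a peak in the same window. The site was picked on the PPAR rows of both genotypes, so only the FXR and LXR rows lay outside that choice.

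A further KO-only peak, 12 bp wide (chr5:90460589-90460600, entry 928), ended 270 bp before the Alb start. The 250 bases that lie between it and the start are printed with the 115 bases under the Foxa2 peak of WT liver with GW4064 in capitals. Neither AGGTCA (0 matches) nor TGTTTAC (0 matches) was in this stretch.
Alb (chr5:90460620-90460869, + strand): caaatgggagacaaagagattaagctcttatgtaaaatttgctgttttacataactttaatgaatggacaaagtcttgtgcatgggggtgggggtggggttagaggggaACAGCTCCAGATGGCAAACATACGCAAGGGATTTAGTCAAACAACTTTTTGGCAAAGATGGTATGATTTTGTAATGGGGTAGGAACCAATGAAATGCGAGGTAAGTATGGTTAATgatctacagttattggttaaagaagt

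Genes of the PPARα programme had few vehicle peaks in either genotype, at about the share of all genes. A gene was counted where the centre of a peak lay inside it or at most 10 kb from either end. For WT this held for 902 of 21900 protein-coding genes, 4.12%, and for 4 of the 91 listed pathway genes (4.40%). For Foxa2-KO it held for 1472 genes, 6.72%, and for 5 of the 91 (5.49%). All these peaks were genotype-only: 0 of 91 had a shared site, against 0.516% of all genes, and no gene of the pathway had a peak in both lists, where 1.41% of all genes did and 0.982% had both a WT-only and a KO-only site. WT-only sites lay beside 3.75% and KO-only sites beside 6.39% of all genes.

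Among the 7 genes of the receptor and its partners, Ppargc1a, the coactivator PGC-1α, had a KO-only peak that was 1 base long (chr5:51524679, entry 672). Of the 14 genes of fatty acid uptake and activation, Acsl5, a long-chain acyl-CoA synthetase, had a WT-only peak of 144 bp (chr19:55262029-55262172, entry 294), and Acot3, a peroxisomal acyl-CoA thioesterase, a KO-only peak of 235 bp (chr12:84064660-84064894, entry 843).

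Of the 13 genes of mitochondrial β-oxidation, 2 had a WT-only and 1 a KO-only peak. Acadl, long-chain acyl-CoA dehydrogenase, had 2 WT-only peaks within the gene, of which chr1:66837124-66837270 (q = 0.0122, entry 166) had the smallest q of any peak beside a pathway gene. Acaa2, the mitochondrial thiolase, had a WT-only peak of 49 bp 5599 bp away (entry 1688). Echs1, enoyl-CoA hydratase, had a KO-only peak of 2 bp (chr7:140110703-140110704, entry 1816). The 4 genes of the carnitine shuttle, the 14 of peroxisomal β-oxidation and the 4 of ketogenesis had 0 peaks in both lists.

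Of the 8 genes of microsomal ω-hydroxylation, Cyp4a10, a fatty acid ω-hydroxylase, had a KO-only peak of 36 bp (chr4:115521602-115521637, entry 2151). Of the 27 genes of lipid droplets, lipoproteins and hormones, Creb3l3, a hepatic transcription factor that acts with PPARα on Fgf21, had 2 KO-only peaks, at 2923 and 9888 bp from the gene. None of the sites beside a pathway gene was in any of the 6 PPAR lists with ligand.

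Other gene lists gave 0 to 2 members each. The degrader of the LDL receptor Mylip, a known LXR target, had the only shared site of a listed gene, chr13:45398516-45398765, entry 160 in WT and 152 in Foxa2-KO. It was in 1 WT and 3 Foxa2-KO PPAR lists with ligand, and the other 13 sterol genes and the 20 bile acid genes had no peak. Of 20 hepatocyte markers, 0 had a WT peak and 2 a KO-only peak, Alb and Apob, the latter 5 bp wide, where 3.75% of all genes had a WT-only and 6.39% a KO-only site. Of 12 sinusoidal endothelial markers, Stab2 had 2 WT-only peaks, of 4 and 7 bp, and 0 of 12 Kupffer cell, 0 of 12 stellate cell and 0 of 10 cholangiocyte markers had one. Peak lists do not give the mix of cells in the liver samples.

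**Figure D5:**
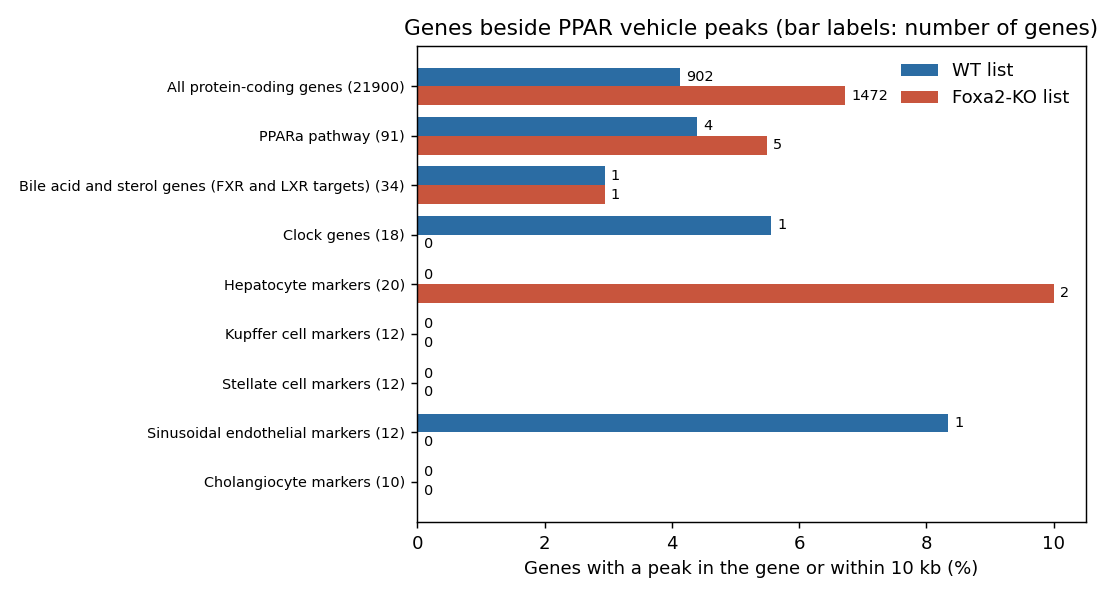
Percent of genes with a PPAR vehicle peak in the gene or within 10 kb (x axis) for all protein-coding genes and 8 gene lists (rows, number of genes in brackets), in WT and Foxa2-KO, with the number of genes beside each bar. The PPARα pathway stands at 4 and 5 of 91, near the 4.12% and 6.72% of all genes, and the marker lists hold 0 to 2 genes each.

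Gene families were looked at after the values were seen, beside shares of 4.12% (WT) and 6.72% (Foxa2-KO) of all genes. Of 99 cytochrome P450 genes, 1 had a WT peak (Cyp2b23, 1.01%) and 12 a Foxa2-KO peak (12.1%). The 12 lay beside 13 sites, all KO-only, of which 7 were in the Cyp2c cluster of chromosome 19 at Cyp2c65, Cyp2c66, Cyp2c29, Cyp2c38, Cyp2c39 and Cyp2c68, genes of fatty acid and drug oxidation. The widest was 126 bp, at Cyp3a44 (chr5:145764293-145764418, entry 352), and 0 of the 13 were in any PPAR list with ligand or in a Foxa2 list. Of 22 Ugt genes, 10 had a peak in each list, 9 of them in the overlapping Ugt1a genes of 1 locus. Zinc finger genes named Zfp had a peak in 29 of 400 (7.25%, WT) and 41 of 400 (10.25%, Foxa2-KO), and vomeronasal receptor genes in 21 and 35 of 355 (5.92% and 9.86%). Olfactory receptor genes had one in 36 and 80 of 1110 (3.24% and 7.21%), near the shares of all genes.

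Sites of all classes gathered in part in the same stretches. In windows of 1 Mb, the largest number of shared sites was at 147 to 148 Mb of chromosome 4, among Zfp978, Zfp982 and other zinc finger genes (21 in WT and 23 in Foxa2-KO), and at 88 to 89 Mb of chromosome 1, with Ugt1a genes, Trpm8 and Hjurp, a centromere chaperone gene (20 and 21). KO-only sites were most numerous in that same chromosome 4 window (52) and at 12 to 13 Mb of chromosome 13, near Actn2, Ryr2 and Prl2c genes (49), which were also the windows with most WT-only sites (14 each). A window on chromosome 3 with the chitinase-like genes Chil3 and Chil4 held 30 KO-only sites. Windows with 4 or more sites held 59.7% of KO-only and 25.5% of WT-only sites, but 24.4% of KO-only sites when as many were taken from the head of the list as there were WT-only sites.

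Shared sites lay at places bound by Foxa2 in WT liver far more often than genotype-only sites did, and WT-only sites did so no more often than KO-only sites. A peak of at least 1 of the 5 Foxa2 lists was met by 146 of 285 shared WT peaks (51.2%), 146 of 287 shared Foxa2-KO peaks (50.9%), 58 of 1700 WT-only peaks (3.41%) and 131 of 3807 KO-only peaks (3.44%). Without the regions of all 4 antibodies, which hold a Foxa2 peak by their definition, the shares were 28.5% and 26.9% for shared and 2.39% and 2.40% for WT-only and KO-only peaks. Shared peaks were also wider, and the part of width in these shares was not tested.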

How the data were processed

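PPAR ChIP-seq of mouse liver was compared between 2 vehicle groups of 2 libraries each. Reads were aligned with BWA to mm10 per the submitters' processing notes, and PeakSeq called peaks against input per the series text; versions are not given in the sources used here. The authors deposited 1 list of intervals per group with a q-value per peak, and whether libraries were pooled before calling is not stated. In the WT list q is written to 6 decimals and reads 0 for 55 peaks at its head, whose order was kept as listed. Both lists are in order of q, which was used for rank. The lists hold no enrichment over input, so the medians planned for it were replaced by width and q.

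Peaks overlapping by at least 1 base counted as shared. Distances from a site to a named gene run from the centre of the peak, except those before the Alb start, which run from peak edges. Gene positions (GRCm38.p6, the coordinates of mm10) and start windows came from RefSeq, the windows without chromosome 18. Named genes were those nearest the first 10 sites of each class outside regions of all 4 antibodies, the first 5 sites in those regions, up to 5 genotype-only sites found in most lists with ligand, and listed genes with a peak, some of which are not reported here. Members and lists were chosen with earlier results of these data known. Overlap steps were checked on simulated intervals. No statistical test was made. Tables were handled in Python 3.11.15 with pandas 2.3.3 and numpy 2.4.6, intervals came from scipy 1.17.1, and matplotlib 3.10.9 drew the figures.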

Additional observations from a re-analysis of the deposited data

How the results depend on the processing

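Overlap and recurrence shares were recomputed under other settings: the overlap of WT and of Foxa2-KO peaks, and the WT-only and KO-only sites found in WT and in Foxa2-KO lists with ligand, as reported 14.4% and 7.01% for overlap, 1.88% and 6.24% for WT-only sites and 0.946% and 5.52% for KO-only sites. Counting peaks within 500 bp gave 17.1% and 8.6% for overlap, 1.7% and 6.81% for WT-only sites and 1.34% and 7.19% for KO-only sites. Vehicle peaks with q of at most 0.05 gave 23.1% and 7.57% for overlap, 4.76% and 10.9% for WT-only sites and 1.67% and 7.59% for KO-only sites. Cutting the Foxa2-KO list to as many entries as the WT list gave 12.2% and 12.1% for overlap, 2.75% and 7.69% for WT-only sites and 1.55% and 6.71% for KO-only sites. Without regions of all 4 antibodies the shares were 9.99% and 4.72% for overlap, 1.49% and 5.31% for WT-only sites and 0.639% and 4.66% for KO-only sites. Without peaks of 20 bp or less, a setting chosen after seeing the data, they were 20.1% and 10.1% for overlap, 3.07% and 9.67% for WT-only sites and 1.39% and 8.15% for KO-only sites. An overlap of at least 50% of the shorter peak kept all 6 within the 95% binomial interval of the reported value. That interval treats the peaks of 1 list as independent and holds no spread between animals, so it served only as a yardstick. In every setting WT-only sites were found more often in Foxa2-KO than in WT lists with ligand. The lists with ligand were used whole in all settings, so their difference in length was never altered. Pathway genes with a peak within 50 kb numbered 7 (WT) and 13 (Foxa2-KO) of 91, where 8.91% and 14.0% of all genes had one. Within 5 kb they numbered 3 and 5, where 3.39% and 5.52% of all genes had one. At q of at most 0.05 they numbered 3 and 5, where the shares of all genes fell to 1.87% and 4.9%. Without regions of all 4 antibodies they numbered 4 and 5, where 4.03% and 6.59% of all genes had one. The median enrichment of shared and genotype-only sites could not be computed, since the PPAR lists give none. Leaving out a library was not run because each group has a single list. No paired analysis was possible because the libraries of a group share 1 list. The precision of each share as a count is limited by the number of sites, its spread between animals cannot be given, and read depth is not given.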
